A study of Mus musculus with 4 samples.

Results

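Hox genes in GC-1 cells were taken as the rows of the deposited table whose gene name is Hox, a cluster letter from a to d and a number. The rule found 39 genes among 55385 rows, with 11 in the Hoxa cluster, 10 in Hoxb, 9 in Hoxc and 9 in Hoxd. GC-1 is a mouse spermatogonial cell line that was immortalised with a viral large T antigen. Its cells were transfected by lipofection either with the MYC plasmid, the control, or with the MYC-TET1 plasmid, which overexpresses TET1, an enzyme that oxidises 5-methylcytosine. Total RNA was sequenced at 24 h and at 36 h after transfection, 1 library for each of the 4 conditions. The labels class the MYC libraries as untreated controls, although the study's methods have them transfected too, and do not say what MYC denotes in the plasmid names. By the methods, all 4 libraries share the line and the transfection. If the labels hold instead, plasmid and transfection cannot be told apart. The share of cells that took up plasmid is not given in the sources used here. With 1 library a condition, no difference between a pair of libraries has a replicate check.

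Hox genes encode homeodomain transcription factors that give the body axis its positional identity. They lie in 4 clusters in which the gene order follows the order of expression along the axis, so that genes of low paralogue number are used towards the head and genes of high number towards the tail and the limb ends. Genes of the same number in different clusters are paralogues of 1 ancestral gene. Once set in the embryo, the pattern of active and silent Hox genes is kept through cell divisions by Polycomb proteins, which silence, and by Trithorax proteins of the MLL group, which keep genes active, and cultured adult cells often carry the code of the site they came from.

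The counts summed to between 60611877 and 72547105 a library. Tet1, the gene on the plasmid, had an FPKM of 0.0526 and 0.0563 in the MYC libraries of 24 h and 36 h, and of 40.2 and 19.6 in the MYC-TET1 libraries. FPKM, the unit of level used throughout, divides the reads of a gene by its length and by the depth of the library. The labelled cell type was checked against 20 germ cell and spermatogonia markers. Only Uchl1 was at an FPKM of 1 or more in all 4 libraries (10.5 to 12.9), 19 were below 1 in every library, and Dazl, Zbtb16, Sall4, Ret and Nanos2 were among 9 with no count. The summed FPKM of the list was 11.7 to 14.2 a library. Sertoli cell genes were on for 4 of 10 (sum 26.0 to 39.9) and peritubular and fibroblast genes for 7 of 12 (sum 490.0 to 537.7, led by Col1a1 and Vim). Of the latter list, Thy1 had no count, and Tagln, Cnn1, Pdgfrb and Myh11 were below 1 in every library. Macrophage genes were on for 2 of 5 (sum 32.8 to 36.3), with Ptprc, Adgre1 and Csf1r at or near 0. None of 7 Leydig genes or of 4 endothelial genes was on, with sums of at most 0.601 and 0.545. The labelled cell type was thus not borne out by its defining markers in these libraries, and the code described here is that of the line as sequenced. The study reported PLZF (Zbtb16) mRNA by qRT-PCR and protein by Western blot. It also reported VASA (Ddx4), DAZL and C-KIT mRNA by qRT-PCR.

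GC-1 cells expressed a broad part of the Hox code. Of the 39 genes, 19 were on, meaning an FPKM of at least 1, in all 4 libraries, 4 were on in some libraries, 10 were detected below 1 in all libraries, and 6 had no count in any library. The 19 genes were 6 of Hoxa, 5 of Hoxb, 6 of Hoxc and 2 of Hoxd. All 4 genes on in some libraries, Hoxb2, Hoxb3, Hoxb5 and Hoxb8, were Hoxb genes. The summed FPKM of all 39 genes was 121.5 and 116.8 in MYC and MYC-TET1 at 24 h, and 134.0 and 130.1 at 36 h. Hoxb genes took 40.8% of this sum in the mean over the libraries, Hoxc genes 38.3%, Hoxa genes 15.7% and Hoxd genes 5.22%. These shares moved little between libraries, from 39.1% to 42.1% for Hoxb and from 4.86% to 5.68% for Hoxd. The sum was carried by few genes, since Hoxc10 and Hoxb9 together took 32.5% and the 5 highest genes 55.4%.

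**Figure D1:**
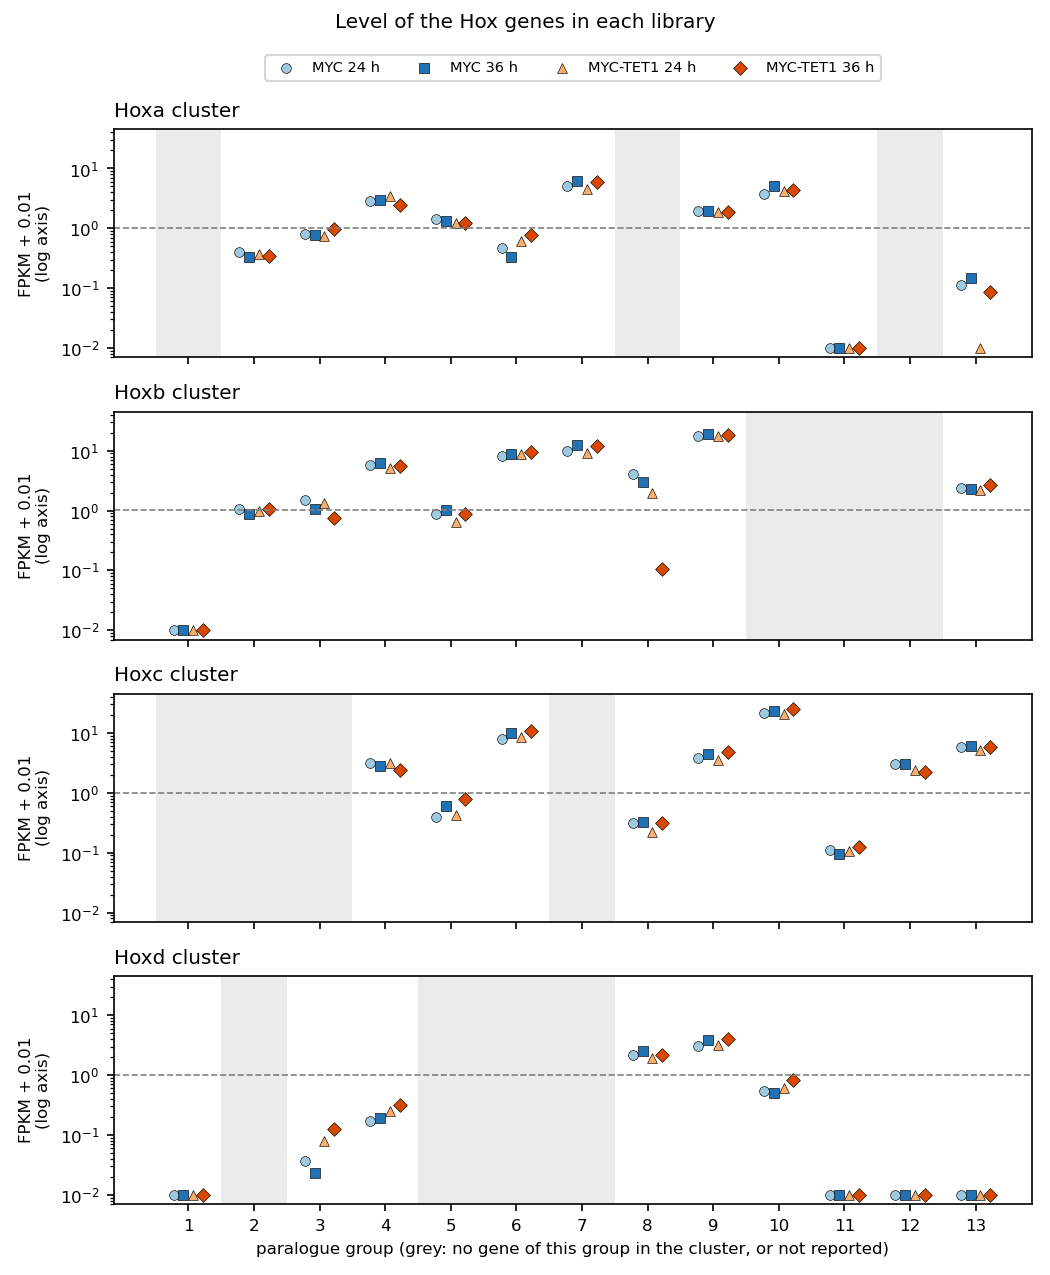
FPKM + 0.01 on a log axis against paralogue group for the Hox genes, 1 panel a cluster and 1 point a library, with the dashed line at an FPKM of 1 and grey where a cluster has no gene of that group or it is not reported here. The points of a gene lie close together except for Hoxb8, which runs from 4.05 in MYC at 24 h to 0.0978 in MYC-TET1 at 36 h, and for genes near 0.

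The Hoxc cluster on chromosome 15 held the highest gene of all. Hoxc10, which takes part in patterning the lumbar spinal cord and hindlimb, had an FPKM of 21.5 and 20.7 in MYC and MYC-TET1 at 24 h, and of 23.3 and 24.7 at 36 h. It was the highest Hox gene in every library, although its exons overlap on the same strand with those of Hoxc5, so that the origin of reads from the overlap is uncertain for both. Hoxc6, a thoracic paralogue, stood at 7.87 and 8.47 at 24 h and at 10.02 and 10.6 at 36 h in the same order. Hoxc13, known for its part in hair and nail formation, stood at 5.78 and 5.21 at 24 h and at 6.05 and 5.77 at 36 h. Hoxc13 lies at the far posterior end of its cluster and was among the 10 highest Hox genes. Hoxc9 had 3.87 and 3.52 at 24 h and 4.497 and 4.73 at 36 h. Hoxc4, the most anterior gene of the cluster, had 3.10 and 3.16 at 24 h and 2.76 and 2.43 at 36 h, and Hoxc12 had 3.05 and 2.39 at 24 h and 3.001 and 2.19 at 36 h. The levels along this cluster were not graded. Hoxc5 (0.388 to 0.790), Hoxc8 (0.210 to 0.312) and Hoxc11 (0.0864 to 0.114) stayed below 1 in all libraries while their neighbours Hoxc4, Hoxc6, Hoxc9, Hoxc10 and Hoxc12 were on.

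The Hoxb cluster on chromosome 11 had every gene on in at least 1 library except Hoxb1. Hoxb9, a thoracic gene, had an FPKM of 17.7 and 17.8 in MYC and MYC-TET1 at 24 h and of 18.8 and 18.6 at 36 h. Hoxb7 followed with 9.98 and 9.20 at 24 h and 12.6 and 11.9 at 36 h, and Hoxb6 with 8.05 and 8.81 at 24 h and 8.72 and 9.34 at 36 h. These 3 genes and Hoxc10 and Hoxc6 were the 5 highest of the family. Hoxb4, best known for expanding blood stem cells when overexpressed, had 5.71 and 5.22 at 24 h and 6.25 and 5.60 at 36 h. Hoxb13, which is set apart from the rest of the cluster and is known from the prostate and tail bud, had 2.38 and 2.19 at 24 h and 2.28 and 2.71 at 36 h. Hoxb5 and the genes anterior to Hoxb4 were lower and near the threshold. Hoxb3 had 1.47 and 1.32 at 24 h and 1.04 and 0.733 at 36 h. Hoxb2, a hindbrain gene, had 1.03 and 0.984 at 24 h and 0.879 and 1.06 at 36 h. Hoxb5 had 0.852 and 0.633 at 24 h and 1.03 and 0.880 at 36 h. These 3 genes crossed the threshold in some libraries only, and their highest level was 1.21-fold (Hoxb2) to 1.998-fold (Hoxb3) their lowest. Hoxb1, at the anterior end, had no count in any library.

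**Figure D2:**
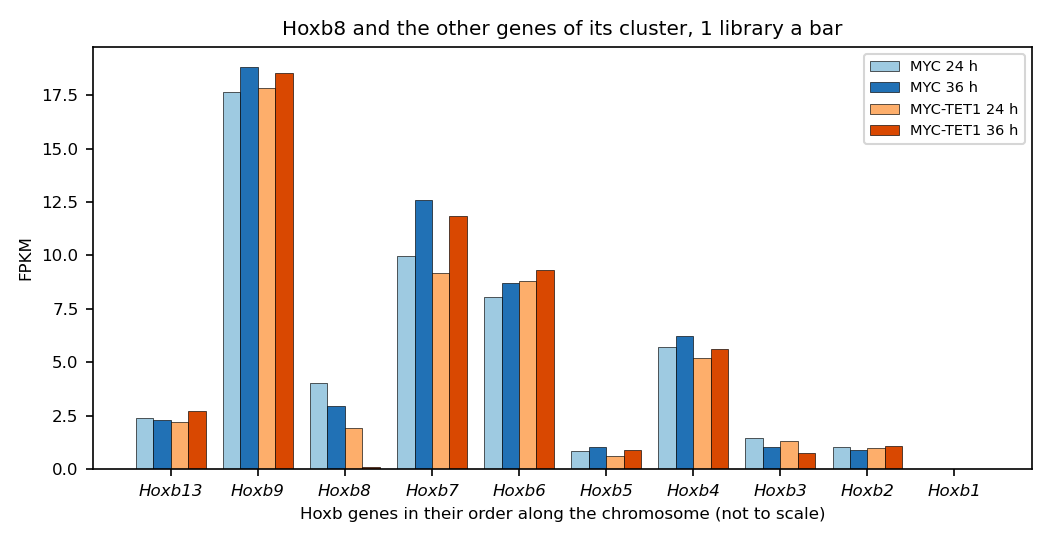
FPKM of the 10 Hoxb genes in their order along the chromosome, with 1 bar a library (blue MYC, orange MYC-TET1, darker at 36 h). Hoxb9 and Hoxb7, on both sides of Hoxb8, stay between 9.20 and 18.8 in all 4 libraries, whereas Hoxb8 goes from 4.05 and 2.97 in the MYC libraries to 1.92 and 0.0978 in the MYC-TET1 libraries.

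In the Hoxa cluster on chromosome 6, Hoxa7 was highest, with an FPKM of 5.06 and 4.60 in MYC and MYC-TET1 at 24 h and of 6.21 and 5.88 at 36 h. Hoxa10, needed for uterine receptivity and male reproductive tract development, had 3.77 and 4.16 at 24 h and 5.02 and 4.29 at 36 h. Hoxa4 had 2.91 and 3.43 at 24 h and 2.99 and 2.45 at 36 h. The next genes were lower and steady or nearly so. Hoxa9, a driver of leukaemia when overexpressed, had 1.97 and 1.89 at 24 h and 1.97 and 1.88 at 36 h, the smallest spread of any Hox gene that was on. Hoxa5, a gene of lung development, had 1.43 and 1.21 at 24 h and 1.30 and 1.24 at 36 h. The exons of Hoxa3, Hoxa4, Hoxa7, Hoxa11, Hoxb2, Hoxb3, Hoxb5, Hoxd3 and Hoxd4 overlap genes on the other strand. Since the sources used here do not say whether strand was counted, reads of such stretches cannot be told apart. Hoxa2 (0.316 to 0.397), Hoxa3 (0.736 to 0.950), Hoxa6 (0.321 to 0.753) and Hoxa13 (0 to 0.136) were below 1 throughout, and Hoxa11 had no count.

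Most genes of the Hoxd cluster on chromosome 2 were below an FPKM of 1 in every library. Hoxd9 had an FPKM of 3.04 and 3.16 in MYC and MYC-TET1 at 24 h and of 3.81 and 3.98 at 36 h, and Hoxd8 had 2.15 and 1.93 at 24 h and 2.48 and 2.18 at 36 h. These adjacent genes were the only Hoxd genes on. Hoxd10 (0.494 to 0.807), Hoxd4 (0.161 to 0.306) and Hoxd3 (0.0134 to 0.114) were detected below 1, and Hoxd1, Hoxd11, Hoxd12 and Hoxd13, the last 3 being the genes of limb ends and genital tubercle, had no count. A count of 0 allows up to 3 counts of the total of a library, for counting error only.

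In paralogue groups 4 to 10, 15 of 22 genes were on in all 4 libraries and none was without a count, and their mean FPKM summed to 109.2 of a total of 125.6. In groups 11 to 13, 3 of 9 genes were on, Hoxb13, Hoxc12 and Hoxc13, 4 had no count, and the sum was 10.9. Group 9 was the one group of 4 genes with all members on, with a summed mean FPKM of 27.8, and group 10 followed with 27.5. In order of mean level, Hoxc10 and Hoxb9 stood clear of each other and of all others, since their ranges over the 4 libraries did not overlap with that of the next gene. From Hoxb7 to Hoxb6, and again from Hoxc13 down to Hoxa9, neighbours in the order had overlapping ranges over the libraries. Of these, Hoxb7 stood above Hoxc6, Hoxa7 above Hoxa10 and Hoxc9 above Hoxd9 within each of the 4 libraries. Against all 10932 genes of the table that were on in all 4 libraries, Hoxc10 stood at percentile 76.9 of mean FPKM, Hoxb9 at 72.1 and Hoxa5, the lowest of the 19, at 1.57.

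For each pair of libraries, a gene entered when either library had an FPKM of 1 or more. Log2 ratios, here of MYC-TET1 over MYC, were formed after 0.1 was added to each FPKM, which understates the change of low genes. Hoxb8 was the only Hox gene at least 2-fold different. At 24 h the MYC library had an FPKM of 4.05 (794 counts) and the MYC-TET1 library 1.92 (404 counts). At 36 h the values were 2.97 (525 counts) and 0.0978 (21 counts). Both MYC-TET1 libraries were thus below both MYC libraries, and the library of 36 h was far below the other 3. Hoxb8, a homeodomain factor whose loss makes mice groom to excess and whose overexpression immortalises myeloid progenitors, lies at chr11:96281905-96285315 on the forward strand of GRCm38 and its exons overlap no other gene of the table. The log2 ratio was -1.04 at 24 h, a level 2.05-fold lower, and -3.96 at 36 h, 15.5-fold lower. The exact Clopper-Pearson 95% interval of the log2 ratio of counts per library total ran from -1.25 to -0.90 at 24 h and from -5.61 to -4.28 at 36 h. After the counts were divided by 4, because low counts pile up at multiples of 4, it ran from -1.43 to -0.72 and from -6.62 to -3.71. With a pseudocount of 1 the log2 ratios were -0.79 and -1.86, so the 24 h difference no longer reached 2-fold. Fewer cells with the transcript and less of it per cell cannot be told apart in bulk RNA. Among the marker lists, the Sertoli sum moved with the pair of 36 h, from 39.9 in MYC to 26.0 in MYC-TET1, and was 27.4 and 26.9 at 24 h, with 4 of its 10 genes on and Fshr and Cldn11 at 0 in every library. The move at 36 h was nearly all Wt1, at 25.6 in MYC and 13.4 in MYC-TET1, while Gata4 had 8.31 and 7.34, Sox9 2.32 and 2.25 and Inhbb 2.17 and 2.25. Dhh, a ligand on the list, was below an FPKM of 1 and had 225 and 81 counts in MYC and MYC-TET1 at 24 h and 175 and 10 at 36 h. The part of these markers in the Hoxb8 difference was not tested.

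At 24 h, 1 of 22 Hox genes compared was at least 2-fold different (Hoxb8, lower), against 3.22% of all 11842 genes compared. At 36 h it was 1 of 23 (Hoxb8, lower), against 3.75% of 11959. In the same direction past 2-fold at both times was 1 of 22, against 0.511% of 11547 genes, of which 28 were higher and 31 lower. Each of these Hox counts rests on Hoxb8 alone, so nothing is read from them about the family. The median log2 ratio of the Hox genes was -0.09 at 24 h and -0.08 at 36 h, and that of all genes compared was -0.01 and 0.00. Of the Hox genes, 14 of 22 were below 0 at 24 h and 16 of 23 at 36 h, beside 52.1% and 50.7% of all genes compared. Apart from Hoxb8, all were less than 1.5-fold different at both times, as were 93.0% and 91.5% of all genes compared.

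**Figure D3:**
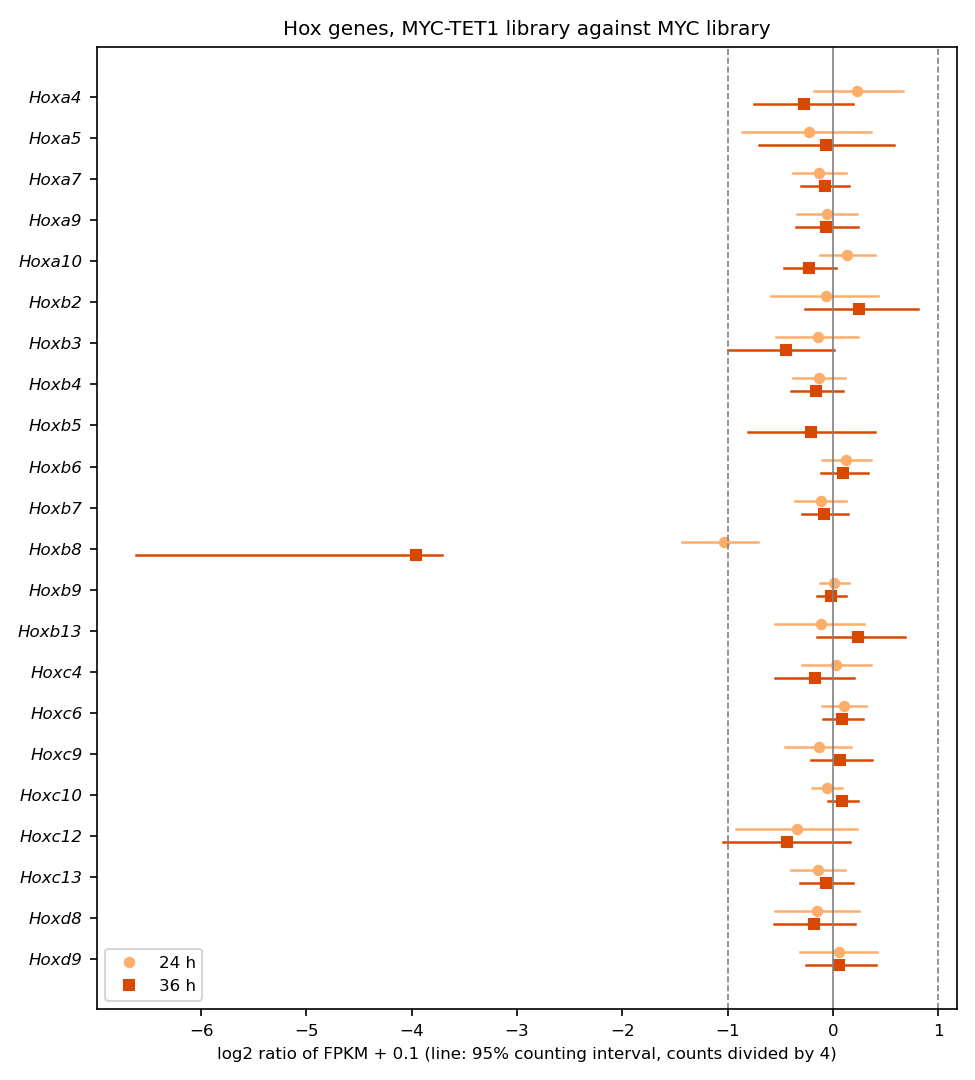
Log2 ratio of FPKM + 0.1, MYC-TET1 over MYC, for the Hox genes compared, with circles for 24 h, squares for 36 h and lines for the exact 95% interval of the ratio of counts divided by 4. The line of Hoxb8 lies wholly below 0 at both times (upper ends -0.72 and -3.71), its point at 36 h sitting near the upper end because the pseudocount shrinks it, and every other line crosses 0.

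The 5 highest Hox genes were nearly equal between plasmids. Hoxc10 had a log2 ratio of -0.06 at 24 h (interval of divided counts -0.20 to 0.09) and 0.09 at 36 h (-0.04 to 0.24). Hoxb9 had 0.02 (-0.12 to 0.15) and -0.02 (-0.15 to 0.13), and Hoxb7 -0.12 (-0.35 to 0.13) and -0.09 (-0.30 to 0.14). Hoxb9 and Hoxb7 are the nearest Hox genes on either side of Hoxb8. Hoxc6 had 0.10 (-0.10 to 0.31) and 0.09 (-0.09 to 0.29), and Hoxb6 0.13 (-0.10 to 0.36) and 0.10 (-0.12 to 0.34). None of these intervals left out 0, and together they bound any difference to less than 1.5-fold, for counting error only. With the counts as deposited the intervals left out 0 for 9 of the 22 Hox genes compared at 24 h, against 55.8% of all genes compared, and for 11 of 23 at 36 h, against 59.4%. With counts divided by 4 they did for 1 of 22, against 27%, and for 1 of 23, against 30.7%, so whether the small differences pass depends on that divisor.

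The plasmid difference averaged over both times was tested in an additive model of plasmid and time with edgeR's quasi-likelihood test. The model has 1 residual degree of freedom from 4 libraries and treats the plasmid difference as equal at both times. Any inequality between 24 h and 36 h serves as its spread, the unequal drop of Hoxb8 included. Its p therefore does not measure a spread between replicates, and whether a difference held at both times was not tested. No Hox gene of 33 tested was called (0.0467% of 17119 genes were), and none had an unadjusted p under 0.05 (3.91% of all genes had). With DESeq2 none was called and 1, Hoxb8, had an unadjusted p under 0.05. Hoxb8 had a fitted log2 fold change of -2.72 (SE 1.04), lower in MYC-TET1 in both time pairs, with an adjusted p of 0.955 by edgeR. Over the alternative fits, DESeq2 included, its adjusted p ran from 0.856 to 1. The drop of Hoxb8 in the MYC-TET1 library of 36 h was also set against that of all genes, by a criterion chosen after its values were seen. Of 11029 genes with FPKM of at least 1 in the other 3 libraries, 7 were at least 8-fold below each of them in that library (0.0635%), Hoxb8 among them. In the MYC libraries 3 genes at 24 h and 7 at 36 h stood apart in the same way, and 2 in MYC-TET1 at 24 h, none of them a Hox gene.

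Because Hoxb8 was the gene that differed, its promoter is shown with those of Hoxb4, which was on at a steady level, and Hoxb1, which had no count. Each runs from 250 bases before to 50 after the gene start, 5′ to 3′ on the forward strand of chromosome 11, from RefSeq on GRCm38.p6, with CpG in capitals. The windows are chr11:96281655-96281954, chr11:96318017-96318316 and chr11:96365508-96365807.
Hoxb8: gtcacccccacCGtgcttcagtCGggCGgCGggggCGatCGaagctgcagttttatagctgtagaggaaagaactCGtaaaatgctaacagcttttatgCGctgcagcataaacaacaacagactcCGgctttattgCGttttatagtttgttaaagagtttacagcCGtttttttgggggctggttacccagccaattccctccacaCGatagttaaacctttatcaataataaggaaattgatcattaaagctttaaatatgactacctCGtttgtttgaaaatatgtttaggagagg
Hoxb4: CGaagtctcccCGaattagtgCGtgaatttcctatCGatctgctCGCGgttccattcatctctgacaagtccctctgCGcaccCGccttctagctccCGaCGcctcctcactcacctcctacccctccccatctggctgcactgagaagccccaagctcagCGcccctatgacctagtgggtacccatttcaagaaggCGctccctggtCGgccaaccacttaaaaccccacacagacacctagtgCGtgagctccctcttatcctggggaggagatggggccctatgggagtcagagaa
Hoxb1: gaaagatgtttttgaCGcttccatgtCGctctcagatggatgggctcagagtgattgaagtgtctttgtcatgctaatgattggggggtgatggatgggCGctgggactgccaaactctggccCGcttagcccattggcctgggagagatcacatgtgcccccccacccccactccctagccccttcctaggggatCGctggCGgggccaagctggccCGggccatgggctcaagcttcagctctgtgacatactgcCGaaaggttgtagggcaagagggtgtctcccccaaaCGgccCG
The windows hold 13, 14 and 10 CpG, against a median of 7 over 32851 RefSeq promoters of the same length. RefSeq promoters were matched for 22 of the 39 Hox genes, too few for a comparison over the family, and methylation was not measured in the files used here.

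The Hox clusters also carry microRNA genes. Mir196a-1, Mir196a-2 and Mir196b lie in Hoxb, Hoxc and Hoxa, and Mir10a and Mir10b in Hoxb and Hoxd. miR-196 is known to cleave Hoxb8 mRNA in the embryo. The mature sequences, from RefSeq on GRCm38.p6, are shown with the seed, bases 2 to 8, in capitals. They fall into 2 families by seed.
miR-196a-5p: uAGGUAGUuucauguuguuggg
miR-196b-5p: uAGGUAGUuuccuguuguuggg
miR-10a-5p: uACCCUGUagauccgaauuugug
miR-10b-5p: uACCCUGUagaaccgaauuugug
The site in the 3′ UTR of Hoxb8, at chr11:96284888-96284909 on the forward strand of GRCm38, is shown as DNA with the bases opposite the seed in capitals.
Hoxb8 site: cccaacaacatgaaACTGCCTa
Pairing was counted without gaps over the protein-coding GENCODE transcripts of all 39 Hox genes. The Hoxb8 site pairs with 21 of the 22 bases of miR-196a-5p by Watson-Crick pairs and with the remaining base, in the seed, by a G:U pair, and no other Hox gene has a stretch with more than 15 Watson-Crick pairs. A count of pairs is a description of sequence. The 7 microRNA rows of the clusters held at most 2 counts in any library, but this library protocol is not made for mature microRNAs, so their levels are not known here.

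Of the 10 Hox genes below an FPKM of 1, those described here were picked after their values were seen. Hoxd3 had counts of 9 and 23 in MYC and MYC-TET1 at 24 h and of 4 and 40 at 36 h. Its interval with divided counts left out 0 at 36 h (log2 count ratio 0.25 to 8.502) and did not at 24 h. Hoxd4, whose exons overlap with those of Hoxd3 on the same strand, had 36 and 58 counts at 24 h and 37 and 75 at 36 h, and Hoxd10 had 72 and 85, then 61 and 119. Hoxa6 had 31 and 43 counts at 24 h and 19 and 54 at 36 h, and Hoxa13 had 19 and 0 at 24 h and 23 and 16 at 36 h. Of the 10 low genes, 5 had a log2 ratio of FPKM + 0.1 above 0 and 5 below at 24 h. At 36 h, 8 were above and 2 below. Of all 12184 genes with counts and an FPKM below 1 in all 4 libraries, 42.9% and 43.8% were above 0. Below 0 were 42.1% and 37.85%, and the rest were at 0. Of the genes described, only Hoxd3 at 36 h had an interval, with divided counts, that left out 0. With the counts as deposited, of the 10 low genes Hoxd3 and Hoxa13 left it out at 24 h and Hoxa3, Hoxa6, Hoxc5, Hoxd3, Hoxd4 and Hoxd10 at 36 h. The share of all genes at that level whose interval leaves out 0 was not counted, with divided counts or as deposited. Nothing is therefore read from these intervals about the low Hox genes.

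By time, the log2 ratio is that of 36 h over 24 h. In MYC, 0 of 23 Hox genes compared were at least 2-fold different between 36 h and 24 h, against 4.72% of 11972 genes, with a Hox median log2 ratio of 0.12 and a median of 0.02 over all genes, and 16 Hox genes were above 0 and 7 below, beside 54.1% of all genes above 0. In MYC-TET1 it was 1 of 22, Hoxb8, against 3.9% of 11901 genes, with a median of 0.10 against 0.02, and 16 above 0 and 6 below, beside 54.2% of all genes above 0. Of the 10 low genes, 4 were above 0 and 6 below in MYC, and 9 above and 1 below in MYC-TET1. Of all genes at that level, 39.7% and 43.8% were above 0, 41.2% and 42.6% below, and the rest at 0. Hoxc5 in MYC-TET1, with 101 counts at 24 h and 198 at 36 h, was the only low gene whose interval with divided counts left out 0 (0.26 to 1.73). With the counts as deposited, Hoxc5 left it out in MYC and Hoxa3, Hoxa13, Hoxc5, Hoxd3 and Hoxd10 in MYC-TET1. Here too the share of all genes at that level was not counted for either kind of interval, so nothing is read from them about the low Hox genes. Time and library cannot be told apart in these pairs. Hoxb8 had a log2 ratio of -0.43 in MYC (interval of divided counts -0.79 to -0.13) and of -3.35 in MYC-TET1 (-6.01 to -3.09). It was lower at 36 h with both plasmids, and with 1 library a condition the difference between these ratios was not tested. The Sertoli sum given above was also highest in MYC at 36 h, through Wt1 (14 at 24 h and 25.6 at 36 h), while Gata4 had 7.55 and 8.31, and its part in the time ratios of MYC was not tested.

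**Figure D4:**
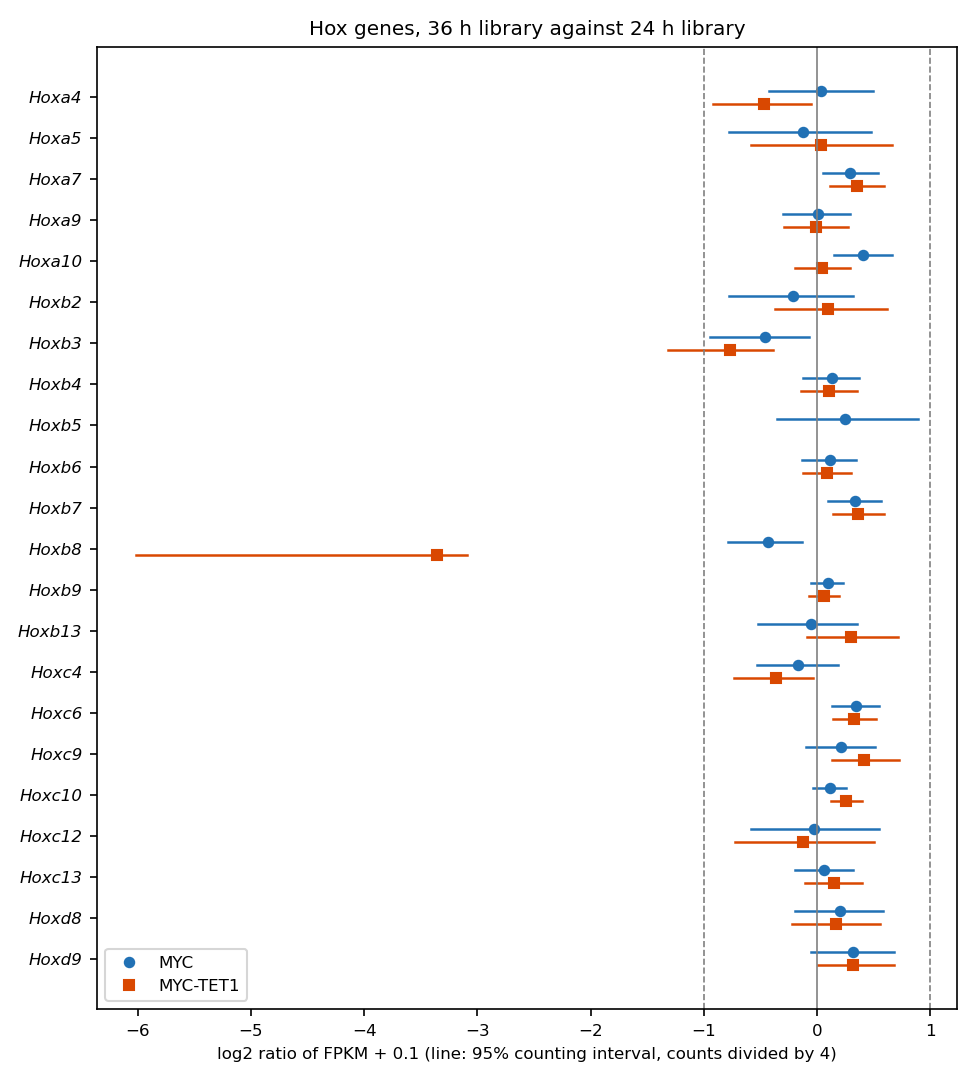
Log2 ratio of FPKM + 0.1, 36 h over 24 h, for the Hox genes compared, with circles for MYC, squares for MYC-TET1 and lines for the exact 95% interval of the ratio of counts divided by 4. Hoxa7, Hoxb7 and Hoxc6 lie above 0 with both plasmids with their whole line, Hoxb3 and Hoxb8 below 0, and Hoxb8 in MYC-TET1 (-3.35) is the only point outside the dashed 2-fold lines.

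Of the genes with intervals off 0, Hoxb3 is given here after its values were seen, with a log2 ratio of -0.46 (-0.95 to -0.08 with divided counts) in MYC and -0.77 (-1.32 to -0.39) in MYC-TET1. Of the 5 highest genes, Hoxb7 had 0.33 (0.10 to 0.56) in MYC and 0.36 (0.14 to 0.59) in MYC-TET1, and Hoxc6 0.34 (0.13 to 0.55) and 0.33 (0.14 to 0.52). Hoxc10 had 0.12 (-0.04 to 0.26) and 0.26 (0.12 to 0.40), Hoxb9 0.09 (-0.06 to 0.23) and 0.06 (-0.08 to 0.19), and Hoxb6 0.12 (-0.13 to 0.35) and 0.08 (-0.13 to 0.30). With divided counts the interval left out 0 for 7 of 23 Hox genes compared in MYC, against 40.7% of all genes compared, and for 11 of 22 in MYC-TET1, against 39.9%. With the counts as deposited it did for 13 of 23, against 66.7%, and for 13 of 22, against 66.2%. In the additive edgeR model, where the 2 plasmids stand as the pairs of the time difference, 0 of 33 Hox genes were called at an adjusted p under 0.05, against 0.0993% of all genes. An unadjusted p under 0.05 was found for 5 of 33, Hoxb3, Hoxc6, Hoxb7 and Hoxa7 among them, beside 11.2% of all genes, and the smallest adjusted p was 0.351, for Hoxb3, whose fitted log2 fold change was -0.70 (SE 0.18). DESeq2 called no Hox gene of the 30 it gave an adjusted p, and none had an unadjusted p under 0.05.

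The spread over the libraries is given for the 19 genes on in all 4, a set that leaves out Hoxb8 and Hoxb3, whose level went below 1 in a library. The highest FPKM of a gene divided by its lowest was 1.30-fold in the median of the 19 genes on in all libraries, with a range of 1.05-fold to 1.72-fold, and 18 of them stayed under 1.5-fold. Over all 10932 genes on in all libraries the median was 1.19-fold, and 9241 stayed under 1.5-fold.

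Between the outermost Hox genes of the clusters lie 46 other rows. Of these, 3 were on in all 4 libraries, Hotairm1, Gm27477 and Gm11539, 27 had any count and 19 had none. Hotairm1, a noncoding antisense RNA of the Hoxa cluster whose reads carry the same limit on strand, had an FPKM of 5.31 and 5.98 in MYC and MYC-TET1 at 24 h and of 5.93 and 6.33 at 36 h, above Hoxa7, the highest Hoxa gene, in 3 of 4 libraries. Hotair, the noncoding RNA of the Hoxc cluster, reached 0.0187 to 0.138, and Hottip, Evx1 and Evx2 at the posterior ends of Hoxa and Hoxd had no count.

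HOX proteins bind DNA together with TALE homeodomain proteins of the PBX, MEIS and PKNOX families. Of 9 such genes, 5 were on in all 4 libraries, and Pbx2 (FPKM 10.8, 10.7, 9.84 and 10.1 in the libraries in the order MYC 24 h, MYC-TET1 24 h, MYC 36 h and MYC-TET1 36 h) and Meis3 (3.14, 3.29, 3.30 and 3.23) were among them. The 6 ParaHox and Cdx genes, close relatives of Hox genes of which the Cdx members activate Hox genes in the embryo, had no count. Of 12 genes of PRC2, the Polycomb complex that methylates histone H3 at lysine 27, 11 were on, led by Rbbp7 (60.4, 65.1, 60.8 and 86.5), Rbbp4 (25.5, 26.0, 25.6 and 25.3) and Suz12 (17.2, 15.6, 16.5 and 15.03). Of 19 genes of PRC1, which ubiquitylates histone H2A, 17 were on, led by Yaf2 (40.9, 36.8, 40.7 and 36.3) and Phc2 (11.9, 12.6, 11 and 11.6). Of 13 genes of the MLL complexes and the demethylases that counter PRC2, 12 were on, led by Rbbp5 (28.8, 28.6, 28.4 and 28.0), Dpy30 (23.6, 32.9, 31.7 and 22.5) and Wdr5 (25.7, 24.5, 21.6 and 23.4). These 8 named regulators were all above an FPKM of 10 in every library, as were only Hoxc10 and Hoxb9 among the Hox genes.

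The retinoic acid pathway, through which Hox genes of the anterior groups are switched on, was on for 6 of 18 genes. Rarg, a receptor, had an FPKM of 33.7, 34.2, 35.3 and 37.0 in the same order, Aldh1a1, which makes retinoic acid, 28.3, 26.2, 21.8 and 23.5, and Rdh10, which makes its precursor, 11.4, 11.9, 15.3 and 14.03. Rarb, Rxrg, Aldh1a2, Crabp1 and Stra8 had no count. In none of these lists was a gene called by plasmid or by time in the edgeR model, and none was at least 2-fold different the same way at both times. The 1 gene past 2-fold in any of the 4 comparisons was Phc3 of PRC1, named here after its values were seen, with an FPKM of 0.384 (MYC) and 1.22 (MYC-TET1) at 24 h and 0.458 and 0.584 at 36 h. The median log2 ratios by plasmid at 24 h and 36 h were 0.00 and -0.05 for the TALE genes, 0.03 and -0.03 for PRC2, -0.01 and -0.06 for PRC1, -0.02 and 0.12 for the MLL group and 0.02 and 0.08 for the retinoic acid pathway, beside -0.01 and 0.00 for all genes compared.

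**Figure D5:**
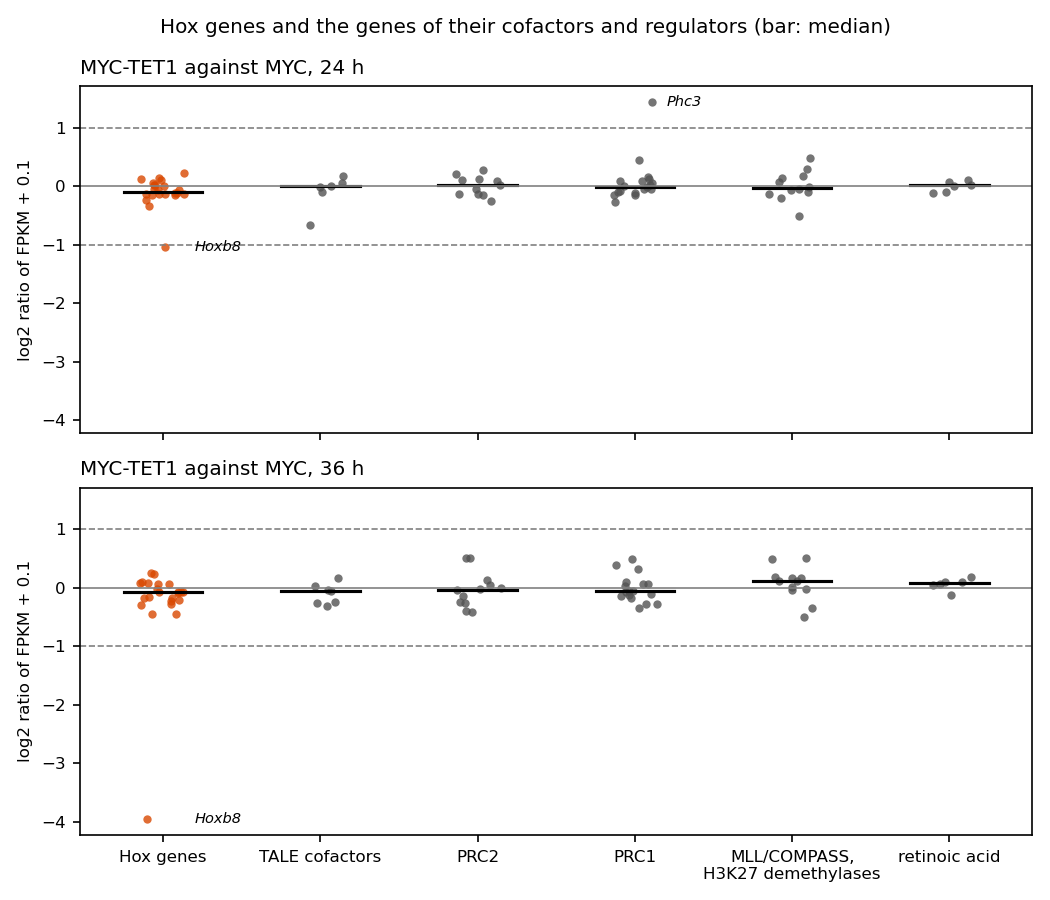
Log2 ratio of FPKM + 0.1, MYC-TET1 over MYC, at 24 h (upper panel) and 36 h (lower panel), with 1 point a gene compared, bars for the median of each list, dashed lines at 2-fold, and points spread sideways only to be seen. Hoxb8 (-1.04 and -3.96) is the only Hox gene past 2-fold, and Phc3 at 24 h is the only gene of the other lists.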

How the data were processed

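RNA of 4 conditions, 1 library each, was analysed from 1 table. The authors deposited for each gene the read count, not normalized, and an FPKM value. The submitters' processing notes name Bowtie 0.12.2, mm8 and mm9, but 37 of the 39 Hox genes and 94.2% of matched rows carry the coordinates of GENCODE M21 on GRCm38. The counting tool and annotation are not given in the sources used here. An FPKM deposited for a count of 0 was taken as 0.

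Groups came from the sample labels. A pair of libraries was compared by the log2 ratio of FPKM + 0.1, called at 2-fold, where either library had an FPKM of 1 or more. Ratios of counts carry 95% intervals from the exact binomial (Clopper-Pearson) method. These hold counting error alone and no spread between replicates, since each condition has 1 library. Where reads are not independent molecules, as after PCR, the intervals are too narrow, and this was not measured. Counts also went into an additive model of plasmid and time in edgeR 4.0.16 (quasi-likelihood test, TMM factors, filterByExpr, Benjamini-Hochberg over all genes), with DESeq2 1.42.0 as an alternative, in R 4.3.3. Python 3.11.15, numpy 2.4.6, pandas 2.3.3 and scipy 1.17.1 were used. The steps were tested on simulated counts.

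The members and the gene lists were chosen with earlier results of these data known. By rule, values are given for every Hox gene with FPKM of at least 1 in any library, intervals for Hox genes at least 2-fold different or called and for the 5 highest, and from other lists the 3 highest and any called member. A Hox gene and a pair of other list genes that fall under this rule are not reported here, though counts and medians include them. Alternatives were other pseudocounts, filters, scalings, thresholds and count divisors. Dividing counts by 4, leaving out Hoxb8 and not requiring the MYC-TET1 library of 36 h were chosen after seeing the data.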

Additional observations from a re-analysis of the deposited data

How the results depend on the processing

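Of 153 alternative values of the main results, 126 stayed within the limits set for them. The limits were 1.5 times for a count, 0.1 for a median log2 ratio and the range over the libraries for a share. A share taken from a single library could not pass its limit, so those values were within it by construction. The number of Hox genes on in all libraries was 19 and became 29 at an FPKM of at least 0.1 and 7 at an FPKM of at least 5. At FPKM of at least 5, Hoxa, Hoxc and Hoxd kept 0, 3 and 0 genes. The Hoxb count of 5 became 8 at 0.1, at 0.5 and with FPKM rescaled to TPM, and 9 when 1 of the 4 libraries sufficed, and the Hoxd count of 2 became 4 at 0.1. By counts, which are not per length, the Hoxa share was 19.9%, the Hoxc share 34.8% and that of the 5 highest genes 49.8%.

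By plasmid at 24 h, 0 Hox genes were at least 2-fold different with a pseudocount of 1, for genes of mean FPKM 5 or more (8 genes compared, without Hoxb8) and at 4-fold, and 2 without a filter (Hoxb8 and Hoxa13). At 36 h the count was 0 for genes of mean FPKM 5 or more and 2 without a filter or with TPM (Hoxb8 lower and Hoxa6 higher). The count the same way at both times was 0 with a pseudocount of 1 and for genes of mean FPKM 5 or more. By time, a 1.5-fold threshold gave 1 gene in MYC and 2 in MYC-TET1 (Hoxb3 and Hoxb8), and genes of mean FPKM 5 or more gave 0 in MYC-TET1. The median by time in MYC-TET1 was 0.25 without a filter and 0.20 for genes of mean FPKM 5 or more. The Hoxb8 log2 ratio at 36 h ran from -1.86 to -4.79 with pseudocounts of 1 and 0.01. No Hox gene was called in the additive model under any alternative run, DESeq2 and counts divided by 2 or by 4 included. No replicate could be left out, and no analysis with a replicate block was possible, because each condition has 1 library. The additive model itself pairs the plasmids by time. Among the 10 low genes, counts were 0 to 463 a library.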
